A study of Mus musculus with 46 samples.

Results

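The samples described here are 6 RNA-seq libraries from the last days of reprogramming with native Nanog, taken at days 8, 10 and 12 (D8, D10 and D12; 2 replicates a day) out of 34 libraries in the gene table. They were chosen by their labels, Nanog+Oct4 at these days, and the comparison asked which genes changed over the 4 days from D8 to D12. All 6 came from mouse embryonic fibroblasts (MEF) of OG2 by 129 embryos, which carry an Oct4-GFP reporter, and all received Oct4 (gene symbol Pou5f1) and native Nanog (NanogWT) from pMXs retroviral vectors. D0 was set after the infections. The cells were first kept in the medium iCD3 and then in N2B27 with 2iL, that is LIF with the inhibitors CHIR99021 and PD0325901. The study's methods place the change of medium after D7 or at another chosen time, without naming the day for these libraries. Under the first schedule D8, D10 and D12 all lay after the change. The fusion libraries used for comparison, labelled NanogN70+Oct4 and called NanogBiD by the study, came from the same kind of fibroblast with the same Oct4 vector, but with Nanog joined to a piece of SS18 that binds the chromatin remodeller BRG1. NanogBiD had 1 library at D8 and 2 at D12. The references were 2 untreated MEF libraries and 1 library of mouse embryonic stem cells (mES). The labels do not say that the replicates came from separate cultures or embryos, so the p-values measure the spread between these libraries, which may be technical. Each library holds RNA of a whole culture, in which more or fewer cells of a kind and more or less RNA per cell cannot be told apart.

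Reprogramming of fibroblasts to pluripotency requires that the fibroblast program is silenced and that a network of transcription factors, with Oct4, Sox2, Nanog and Esrrb among its core members, becomes active from the endogenous genes. The inhibitors in 2iL block MEK and GSK3, and with LIF they hold mouse stem cells in the naive state. Cultures under reprogramming factors are mixtures, in which cells that do not reach pluripotency can keep or acquire other programs, among them neural ones, and respond to the virus or to other cells through interferon-stimulated genes.

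Values are FPKM (fragments mapped to a gene, scaled to its length and to the mapped fragments of the library), and differences were tested on log2(FPKM + 1). On this scale the change of low genes is understated. A gene was called when its Benjamini-Hochberg adjusted p in limma, over 16842 genes tested, was under 0.05 and its log2 difference at least 1 in size, a 2-fold change. The spread was estimated over all 31 time-course libraries. Relative to the first D8 library, sequencing depth read from the smallest steps of the values was 1.05 for the second, 0.956 and 1.59 at D10, and 1.64 and 1.06 at D12, whereas NanogBiD stood at 0.527 at D8 and at 0.419 and 0.463 at D12. Between 13684 and 13900 genes reached 1 FPKM, and replicates correlated across genes at r = 0.981 to 0.987. Mitochondrial transcripts made up 7.65 to 12.9% of the values and ribosomal protein genes 5.81 to 8.29%. Nanog, measured together with the introduced copy, stood at 466 and 469.8 FPKM at D8, 387 and 331 at D10 and 261 and 365 at D12, against 0.232 in MEF and 365 in mES. Pou5f1 stood at 3838 and 3388 FPKM at D8, 3644 and 2763 at D10 and 2689 and 1498 at D12. Neither passed the test between D8 and D12, with log2 differences of -0.60 ± 0.20 (SE, adjusted p = 0.0714) and -0.84 ± 0.36 (SE, adjusted p = 0.16). The fibroblast gene Col1a1, for a collagen chain, was still at 894 and 664 FPKM at D12.

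From D8 to D12 genes rose more often than they fell. Of the 16842 genes tested, 524 were called higher at D12 (3.11%) and 192 lower (1.14%), together 716 (4.25%), and the median log2 difference of all genes was -0.02. Among the called genes 6 carried the values of another called entry to within 1%. The genes that rose started low, with a median of 0.815 FPKM at D8 and 5.31 at D12, and those that fell went from a median of 9.52 to 3.24 FPKM. The largest rises belonged to Dppa5a, a gene of naive pluripotent cells, and to genes of neurons, and among the largest falls were the small nuclear RNA Rn7sk, the fibrinogen-like protein Fgl2 and the interferon regulator Irf7. Over the earlier interval of equal length, D3 to D7, 248 genes were called higher (1.47%) and 30 lower (0.178%), together 1.65% of those tested. The D3 and D7 libraries had 0.481 to 0.546 times the depth of the first D8 library, and depth and interval cannot be told apart in these counts.

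**Figure D1:**
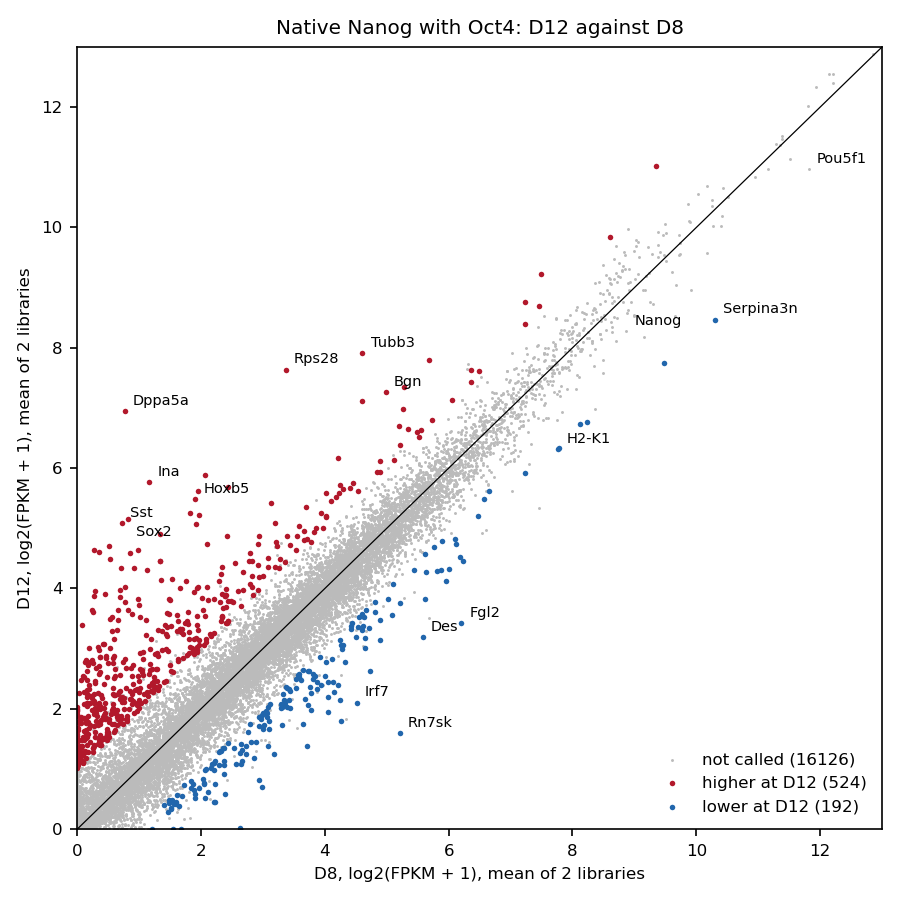
Mean log2(FPKM + 1) of the 2 NanogWT libraries at D8 (horizontal axis) against the mean at D12 (vertical axis), 1 point for each of 16842 genes tested. The 524 genes called higher lie mostly at the low end of D8, while the 192 called lower are spread over a wider range of D8 levels.

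The pluripotency genes rose from very low levels. Of 20 naive pluripotency transcription factors, 12 were called higher and none lower (limma, with a median log2 difference of 1.41), and of 24 downstream pluripotency genes 15 were called higher and none lower, with a median of 1.40. Dppa5a (chr9:78367052-78368199, mouse build GRCm38.p6), a small RNA-binding protein of pluripotent cells, stood at 0.0498 and 1.75 FPKM at D8, 20.0 and 40.7 at D10 and 102 and 146 at D12. Both D8 libraries were under 2 FPKM, both D10 libraries were above them, and both D12 libraries were above both D10 libraries. The log2 difference of Dppa5a was 6.18 ± 0.41 (SE, adjusted p = 9.39e-09). The genes of largest change were named only if D8 and D12 did not overlap, which held for 55.4% of all genes tested. Sox2 (chr3:34649995-34652461), the partner of Oct4 on DNA, was at 0.0517 and 1.94 FPKM at D8, 7.91 and 28.3 at D10 and 39.8 and 30.0 at D12. D12 was above D8 in all 4 libraries, and the second D10 library was close to the D12 level. The log2 difference was 4.34 ± 0.45 (SE, adjusted p = 2.06e-06). Unlike most pluripotency genes called, Sox2 had its higher D12 value in the first library. Whether it rose with these genes or with the neural genes below was not tested.

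Other members of the network followed the same course at lower levels. Esrrb (chr12:86361117-86521628), an orphan nuclear receptor of the naive state, stood at 0.124 and 0.479 FPKM at D8, 1.59 and 3.60 at D10 and 3.97 and 9.66 at D12, so that the second D12 library was well above the first. Its log2 difference was 2.50 ± 0.28 (SE, adjusted p = 6.13e-06). Zfp42, the stem cell marker also called Rex1, was at 0.0369 and 0.187 FPKM at D8, 1.29 and 2.77 at D10 and 3.09 and 6.56 at D12 (log2 difference 2.32, SE 0.29, adjusted p = 1.87e-05). Both D12 libraries were above both D8 libraries, with the second again the higher. Nr0b1, a corepressor that binds the Oct4 and Esrrb network, went from 0 and 0.270 FPKM at D8 to 4.23 and 7.42 at D12, and Lefty2, an inhibitor of Nodal signalling, from 0 and 0.123 to 6.44 and 13.8. Their log2 differences were 2.56 ± 0.36 (SE, adjusted p = 7.41e-05) and 3.31 ± 0.27 (SE, adjusted p = 1.25e-07). Gbx2, a homeobox gene activated by LIF and STAT3, rose from 0.0900 and 0.900 to 10.0 and 10.5 FPKM, with 0.596 and 6.76 at D10 (log2 difference 2.97, SE 0.46, adjusted p = 2.24e-04).

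The promoter of Zfp42 is shown because it holds the octamer motif that Oct4 and other POU factors bind. It covers the 250 bases before the RefSeq start site (chr8:43307010-43307259, minus strand), with the octamer ATTTGCAT in capitals.

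Zfp42: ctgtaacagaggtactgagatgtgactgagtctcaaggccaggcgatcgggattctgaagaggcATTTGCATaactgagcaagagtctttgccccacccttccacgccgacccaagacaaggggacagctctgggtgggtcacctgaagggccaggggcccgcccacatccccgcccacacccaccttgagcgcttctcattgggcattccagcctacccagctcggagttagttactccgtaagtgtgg

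The octamer was searched on both strands of the 250-base windows of the RefSeq promoters, of which 1.6% held it. Among called genes with a window it was found in 12 of 357 that rose (3.36%) and in 9 of 140 that fell (6.43%), against 1.73% of the genes tested. A match describes the sequence and is not evidence of binding.

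Several naive genes were far below the mES level at D12. Dppa5a reached 5.19% of the single mES library, Sox2 14.1%, Nr0b1 12.1%, Esrrb 4.18% and Zfp42 3.81%. Gbx2 reached 86.4%, and Lefty1 was above mES, at 217% of its level, while Lefty2 reached 6.66%. Klf4, a factor of the classical reprogramming cocktail, was at 11.4 and 11.4 FPKM at D8, 11.4 and 13.2 at D10 and 13.5 and 13.5 at D12 (log2 difference 0.22, SE 0.35, adjusted p = 0.784), and Tbx3 was at 2.28 and 2.42 FPKM at D8 and 2.98 and 4.00 at D12 (log2 difference 0.41, SE 0.21, adjusted p = 0.246). In mES they stood at 165 and 58.2 FPKM. Cdh1, the epithelial cadherin gained early in reprogramming, rose from 0.122 and 0.616 to 2.46 and 7.15 FPKM (log2 difference 1.98, SE 0.31, adjusted p = 2.50e-04), but was the sole member called among 17 epithelial genes tested. Of the 27 pluripotency genes called, 25 had the higher D12 value in the second library, and without that library 9 of the 24 downstream genes were called instead of 15. Dppa3, a maternal factor that protects DNA methylation, was at 1.57 and 12.9 FPKM at D12, with a log2 difference of 2.23 ± 0.49 (SE, adjusted p = 0.00527), of 1.01 (adjusted p = 0.164) without the second D12 library and of 1.87 (adjusted p = 0.095) without the first D8 library.

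**Figure D2:**
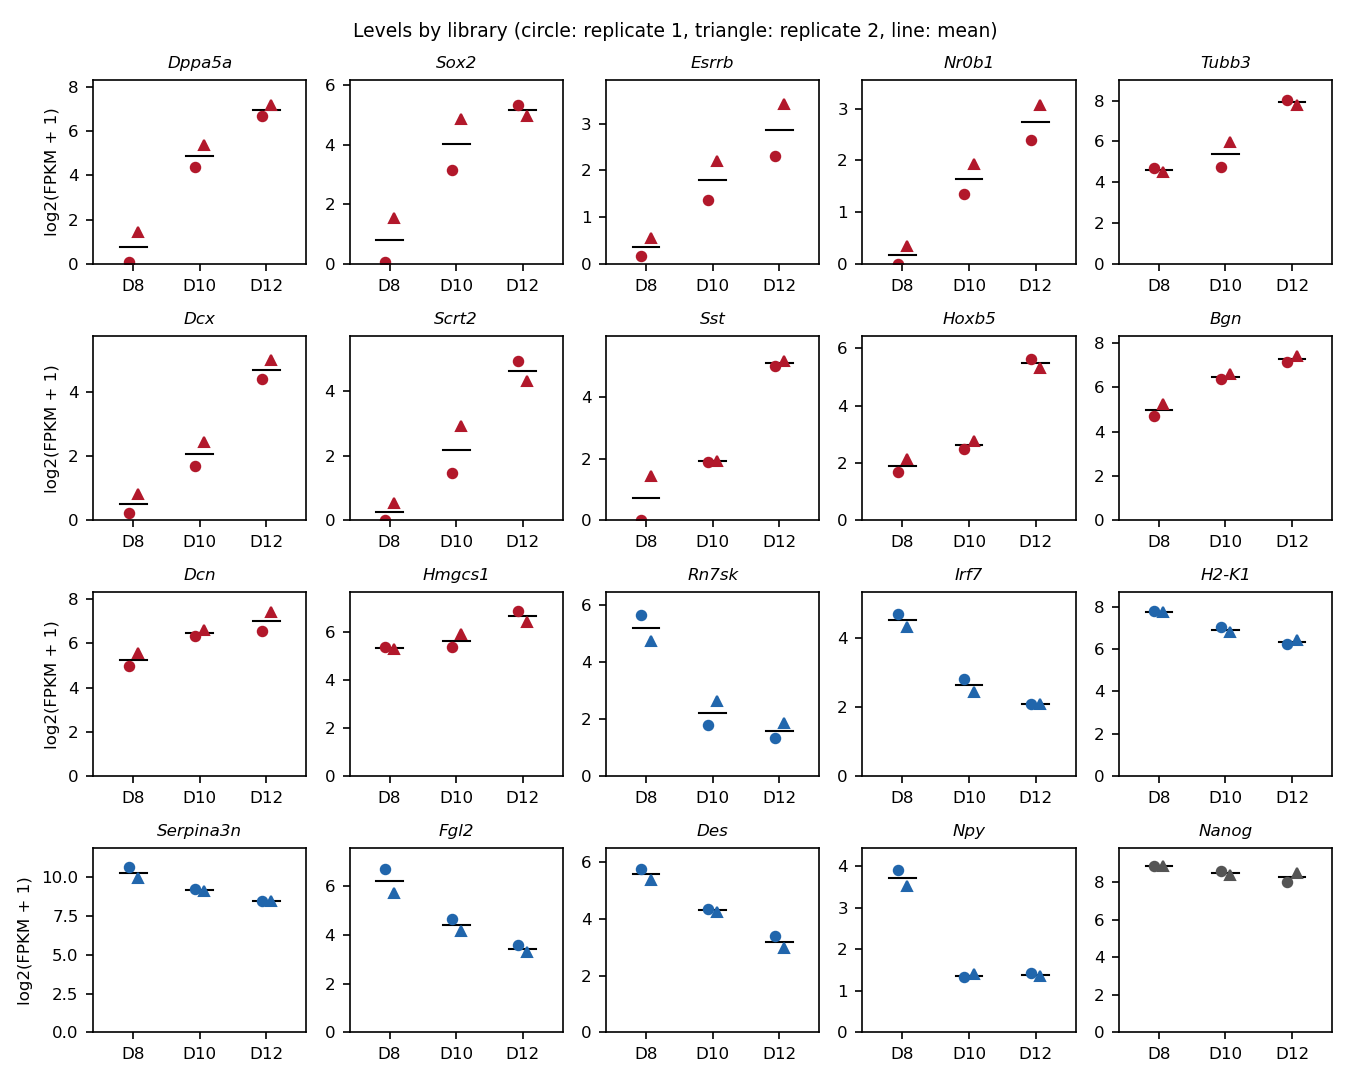
Level as log2(FPKM + 1) (vertical axis, with its own range for each gene) of 20 genes in the 6 NanogWT libraries at D8, D10 and D12 (horizontal axis), with circles for replicate 1, triangles for replicate 2 and a line at the mean of each day. Points are red where the gene was called higher at D12, blue where called lower and grey where not called, and Nanog is the one grey gene.

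Genes of neurons and of the neural tube filled most of the largest rises. Of 16 neural and glial markers tested, 8 were called higher and none lower, with a median log2 difference of 1.25. Olig2, the oligodendrocyte factor, was too low to be tested. Ina (chr19:47014681-47025327), the neurofilament alpha-internexin, stood at 0.548 and 2.22 FPKM at D8, 4.45 and 11.1 at D10 and 53.6 and 53.7 at D12. The D12 libraries were alike and several times above both D10 libraries. Stmn3 (chr2:181306459-181314500), which regulates microtubules in neurons, was at 0.112 and 0.454 FPKM at D8, 1.53 and 4.34 at D10 and 25.7 and 21.4 at D12. The log2 differences of Ina and Stmn3 were 4.61 ± 0.33 (SE, adjusted p = 1.99e-08) and 4.27 ± 0.25 (SE, adjusted p = 3.59e-09). Dcx (chrX:143855842-143933396), doublecortin of migrating neurons, went from 0.159 and 0.748 FPKM at D8 through 2.21 and 4.46 to 20.3 and 31 at D12 (log2 difference 4.20, SE 0.28, adjusted p = 9.39e-09). Elavl3 (chr9:22015005-22052146), a neuronal RNA-binding protein, went from 0.0508 and 0.966 through 2.28 and 5.89 to 24.3 and 18.9 FPKM (log2 difference 3.96, SE 0.29, adjusted p = 1.99e-08).

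In a wider list of 32 neuronal cytoskeleton and RNA-binding genes, chosen after the values were seen, 20 were called higher and 1 lower, with a median of 1.64. Tubb3, the neuron-specific beta-tubulin, was among the abundant members, at 24.9 and 21.9 FPKM at D8, 26.2 and 62.5 at D10 and 258 and 223 at D12 (log2 difference 3.31, SE 0.42, adjusted p = 2.32e-05). The D10 libraries differed from each other, and the first was close to D8. Stmn2 rose from 7.19 and 8.26 to 35.9 and 49 FPKM and Dpysl5, a collapsin response mediator of growing axons, from 0.519 and 1.14 to 23.5 and 22.6. Fabp7, a fatty acid binding protein of radial glia, was at 0.670 and 9.36 FPKM at D8, 12.9 and 32.7 at D10 and 64.2 and 52.2 at D12, with a wide gap between the D8 libraries (log2 difference 3.82, SE 0.54, adjusted p = 8.02e-05). Some neuronal genes did not pass the test. The neurofilament genes Nefm and Nefl were already high at D8. Nefm was at 344 and 308 FPKM at D8 and 240.0 and 177 at D12 (log2 difference -0.66), and Nefl at 178 and 155 and 108 and 123 (log2 difference -0.52). The single member called lower was Prph, the intermediate filament peripherin, which went from 19.5 and 15.5 to 3.55 and 5.11 FPKM (log2 difference -1.81, SE 0.45, adjusted p = 0.0123). That call was lost without the first D8 library, at -1.65 (adjusted p = 0.122), and without the first D12 library, at -1.59 (adjusted p = 0.0888).

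Transcription factors of the neural tube rose together with these genes. Of 46 neural patterning and proneural factors tested, in a list also chosen after the values were seen, 28 were called higher and none lower, with a median log2 difference of 1.49. Scrt2 (chr2:152081529-152095802), a repressor of newborn neurons, was at 0.00940 and 0.438 FPKM at D8, 1.76 and 6.51 at D10 and 29.8 and 19 at D12. Msx3 (chr7:140046157-140049088), a homeobox gene of the dorsal neural tube, was at 0 and 0.488 FPKM at D8, 1.93 and 7.77 at D10 and 16.3 and 12.9 at D12. For both, the second D10 library was several times the first and still below D12, and the log2 differences were 4.37 ± 0.30 (SE, adjusted p = 1.09e-08) and 3.67 ± 0.31 (SE, adjusted p = 1.58e-07). Zic1, a dorsal patterning factor, rose from 3.45 and 5.62 FPKM at D8 to 50.0 and 51.1 at D12, and Pax3 from 0.0660 and 0.479 to 7.27 and 6.99. Neurog2, a proneural factor, rose from 0.129 and 0.233 to 7.68 and 4.61 FPKM (log2 difference 2.56, SE 0.27, adjusted p = 2.07e-06). At D12 the first library had the higher value for 20 of the 28 factors called, the order also seen for Sox2 and the reverse of that of most pluripotency genes. The forebrain factor Otx2 stayed under 1 FPKM in all 4 libraries of D8 and D12, and Nkx6-1, of the ventral neural tube, was at 15.5 and 25.1 FPKM at D8 and 18.5 and 11.7 at D12 without passing the test (log2 difference -0.40).

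The Hox genes, which set position along the body axis and in the neural tube, rose in part. All 39 were tested, in a list chosen after the values were seen, and 13 were called higher and none lower. The 13 were among the 24 genes of paralogue groups 2 to 9, whose median log2 difference was 1.22. None of the 3 genes of group 1 (median 0.41) and none of the 12 of groups 10 to 13 (median -0.14) was called. The band 2 to 9 runs from the lowest to the highest group with a call, so calls could not lie outside it. Inside it some genes did not rise, such as Hoxc6 at -0.11 and Hoxd9 at -0.38. Hoxb5 (chr11:96303512-96306121) stood at 2.20 and 3.38 FPKM at D8, 4.66 and 5.74 at D10 and 49.1 and 38.8 at D12, so that most of the rise fell after D10 (log2 difference 3.58, SE 0.31, adjusted p = 1.71e-07). Hoxa5 was at 1.38 and 4.24 FPKM at D8, 5.42 and 8.50 at D10 and 49.2 and 28.3 at D12 and Hoxb8 at 2.34 and 3.53 FPKM at D8, 6.32 and 12.1 at D10 and 42 and 31.4 at D12. Both D12 libraries were above every D8 and D10 library in these 3 genes. The log2 differences of Hoxa5 and Hoxb8 were 3.44 ± 0.37 (SE, adjusted p = 3.44e-06) and 3.26 ± 0.28 (SE, adjusted p = 1.85e-07). In mES they were at 1.17 and 0 FPKM, and in MEF at 21.9 and 7.66.

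**Figure D3:**
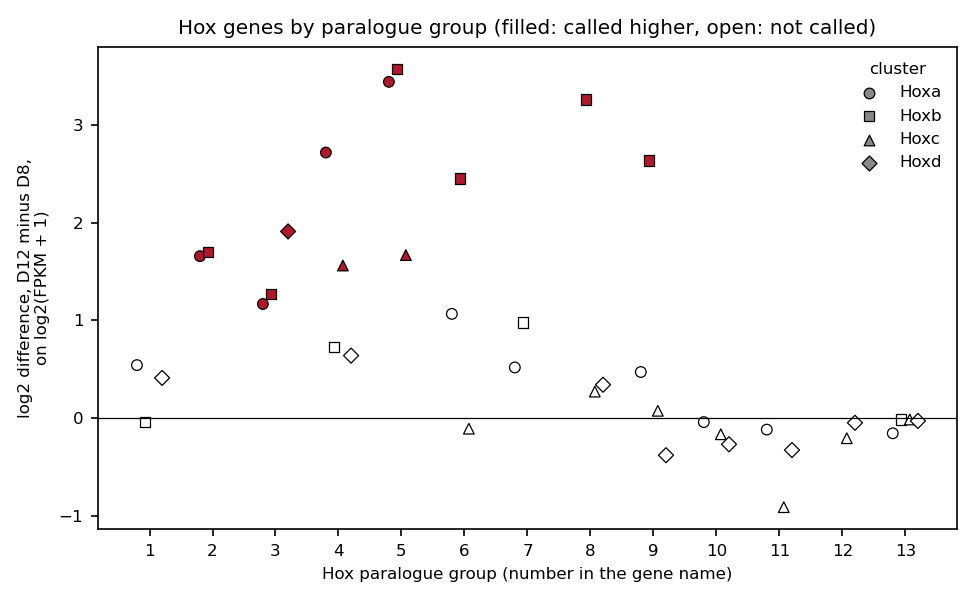
Log2 difference D12 minus D8 with NanogWT (vertical axis) of the 39 Hox genes by paralogue group (horizontal axis), coloured by call. The 13 called genes all lie in groups 2 to 9, and groups 10 to 13 lie below 0.

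Components of the Notch pathway, through which neighbouring cells of the neural tube hold each other back from differentiating, rose in part. Of 18 members tested, in a list chosen after the values were seen, 6 were called higher and none lower. They were the ligand genes Dll1 and Dll3 (log2 difference of Dll3 2.66), the receptor gene Notch1, the glycosyltransferase gene Mfng, and the target genes Hes5 and Nrarp. Notch1 was at 4.63 and 4.19 FPKM at D8 and 9.89 and 10.1 at D12 (log2 difference 1.02, SE 0.23, adjusted p = 0.00665), and its call was lost without the second D8 library, at 0.97 (adjusted p = 0.0553), and without the second D12 library, at 1.01 (adjusted p = 0.0573). Dll1 was at 1.63 and 3.34 FPKM at D8, 2.50 and 8.11 at D10 and 19.5 and 13.8 at D12 (log2 difference 2.37, SE 0.39, adjusted p = 4.14e-04), and Hes5, a repressor of proneural genes, at 0 and 1.90 FPKM at D8, 2.45 and 11.6 at D10 and 16.9 and 13.6 at D12 (log2 difference 3.25, SE 0.45, adjusted p = 5.56e-05). In both, the first D10 library was near the second D8 library, and the second D10 library lay between D8 and D12. Nrarp, a feedback inhibitor of the pathway, was at 1.31 and 1.81 FPKM at D8, 2.17 and 9.87 at D10 and 19 and 14.5 at D12 (log2 difference 2.79, SE 0.39, adjusted p = 6.02e-05). In a fit to the 6 late libraries alone Dll1, Dll3, Notch1, Hes5 and Nrarp lost their calls, with adjusted p from 0.0511 for Nrarp to 0.102 for Notch1, and Hes5 also did in a fit to D8 and D12 alone (adjusted p = 0.0641). The Nrarp promoter (chr2:25180508-25180757, plus strand, GRCm38.p6) is shown as the second octamer-bearing promoter of a gene that rose. Its capitals mark the octamer read on the opposite strand.

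Nrarp: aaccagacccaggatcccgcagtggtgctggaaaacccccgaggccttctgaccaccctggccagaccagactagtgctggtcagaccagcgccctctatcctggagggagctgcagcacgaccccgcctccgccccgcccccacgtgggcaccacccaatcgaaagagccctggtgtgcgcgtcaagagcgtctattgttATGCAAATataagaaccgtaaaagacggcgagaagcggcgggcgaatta

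The ligands Jag1 and Jag2 and the receptors Notch2 and Notch3 had log2 differences of -0.12, -0.03, -0.41 and -0.23 and did not pass.

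Peptide hormones split by direction. Of 15 neuropeptide and granin genes tested, 7 were called higher and 3 lower. Sst, somatostatin (chr16:23889573-23891342), was at 0 and 1.72 FPKM at D8, 2.67 and 2.81 at D10 and 30.9 and 35 at D12 (log2 difference 4.36, SE 0.33, adjusted p = 3.28e-08). Most of the rise lay between D10 and D12, and the D12 libraries were alike. Trh, thyrotropin-releasing hormone, went from 0.0230 and 0.614 through 2.87 and 4.68 to 4.14 and 9.33 FPKM (log2 difference 2.50, SE 0.30, adjusted p = 1.31e-05). The granin genes Chga, Chgb, Scg2 and Scg3, which package secretory granules, were called higher with log2 differences of 1.62, 1.93, 1.22 and 1.68. Npy, neuropeptide Y, fell from 13.9 and 10.6 FPKM at D8 to 1.53 and 1.63 at D10 and 1.68 and 1.55 at D12 (log2 difference -2.33, SE 0.37, adjusted p = 2.33e-04). Gal, galanin, fell from 8.17 and 5.39 to 0.944 and 0.604 FPKM (log2 difference -2.12, SE 0.34, adjusted p = 2.65e-04). For both, every D10 and D12 library was below every D8 library.

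Fibroblast genes differed by list, beside shares of 3.11% called higher and 1.14% called lower over all genes tested. Of 19 mesenchymal factors and markers tested none was called, at a median of 0.07. Of 23 fibroblast matrix genes 5 were called higher and none lower, with a median of 0.54, and of 15 matrix proteases and inhibitors 3 were called higher. Among 14 TGF-beta and YAP target genes 1 was called higher and 2 lower. Of the latter, Tgfbi, an adhesion protein of the matrix, fell from 263 and 181 to 86.2 and 74.3 FPKM (log2 difference -1.44, SE 0.29, adjusted p = 0.00221), and its call was lost without the first D8 library, at -1.17 (adjusted p = 0.0619). Tgfb1, the growth factor itself, had a log2 difference of -1.18 ± 0.35 (SE, adjusted p = 0.0344) and lost its call without the first D8 library, at -0.99 (adjusted p = 0.275), the second D8 library, at -1.37 (adjusted p = 0.066), or the second D12 library, at -0.89 (adjusted p = 0.348). Bgn, the proteoglycan biglycan (chrX:73483601-73495936), was at 25.3 and 37 FPKM at D8, 80.7 and 95.9 at D10 and 138 and 169.6 at D12 (log2 difference 2.29, SE 0.35, adjusted p = 1.57e-04). Dcn, decorin, was at 30.5 and 45.8 FPKM at D8, 78.9 and 94.4 at D10 and 93.4 and 170.4 at D12 (log2 difference 1.73, SE 0.30, adjusted p = 5.96e-04), and Mfap5, of elastic microfibrils, rose from 2.41 and 2.08 to 10.4 and 7.73 FPKM (log2 difference 1.62, SE 0.23, adjusted p = 7.02e-05). Both D12 libraries of each were above both D8 libraries. In MEF, Bgn was at 1352 FPKM and Dcn at 12.3, so that the first was below and the second above the MEF level at D12. Ogn, osteoglycin, had a log2 difference of 2.07 ± 0.43 (SE, adjusted p = 0.003), which was 1.57 (adjusted p = 0.0888) without the first D8 library and 1.62 (adjusted p = 0.082) without the second D12 library. Postn, periostin, was at 991 and 946 FPKM at D8 and 492 and 504 at D12, just under the fold limit (log2 difference -0.96, SE 0.21, adjusted p = 0.00576). Among 14 smooth muscle genes 1 was called, the intermediate filament gene Des, which fell from 53.3 and 41 to 9.49 and 6.93 FPKM with 19.3 and 18.2 at D10 (log2 difference -2.39, SE 0.38, adjusted p = 2.47e-04).

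Cholesterol synthesis genes rose in part. Of 22 tested, 4 were called higher and none lower, with a median of 0.53. Hmgcs1, the enzyme that makes HMG-CoA, was at 40.7 and 38.2 FPKM at D8, 40.6 and 58.6 at D10 and 116 and 84.4 at D12 (log2 difference 1.31, SE 0.16, adjusted p = 1.71e-05). Idi1, which isomerises isopentenyl diphosphate, rose from 19.1 and 18.2 to 53 and 45.4 FPKM (log2 difference 1.35, SE 0.19, adjusted p = 9.30e-05). The first D10 library was near D8 in both genes. At D7 Hmgcs1 stood at 123 and 138 FPKM, Idi1 at 102 and 131, Cyp51 at 72.1 and 74.0 and Msmo1 at 131 and 158. In these 4 called genes D8 was thus below D7, and both D12 libraries were still below both D7 libraries, which were shallower. Igfbp2, an IGF-binding protein, rose from 15.9 and 34.1 to 160.2 and 117 FPKM (log2 difference 2.50, SE 0.33, adjusted p = 3.47e-05), and 2 others of 13 IGF axis genes were called higher. The cell cycle and DNA replication list had none of 24 called, with a median of 0.47. All 24 log2 differences were above 0, where the median of all genes tested was -0.02. None of 14 p53 and Cip genes, 16 glycolysis genes or 9 DNA methylation and Tet genes was called, with medians of -0.07, 0.29 and 0.38. The ERK feedback list, whose genes MEK inhibition lowers, had 2 of 17 called higher, the Wnt feedback list 1 of 15, the LIF and STAT3 list 1 of 13, and the BAF subunit list 1 of 21, the neuronal subunit gene Actl6b. Over all genes tested 3.11% were called higher, so 1 call in a list of such a size, here or among the markers below, is no result about the list. Among markers of other cell types, none of 5 adipocyte, 9 cartilage and bone, 11 macrophage and leukocyte, 7 endothelial and 6 primitive endoderm genes tested was called, and 1 each of 5 skeletal muscle, 6 trophoblast and 6 germline genes was called higher (Mylpf, Tfap2c and Dppa3). The call of Tfap2c was lost without the first D8 library, at 0.80 (adjusted p = 0.277), and without the second D12 library, at 0.52 (adjusted p = 0.5).

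**Figure D4:**
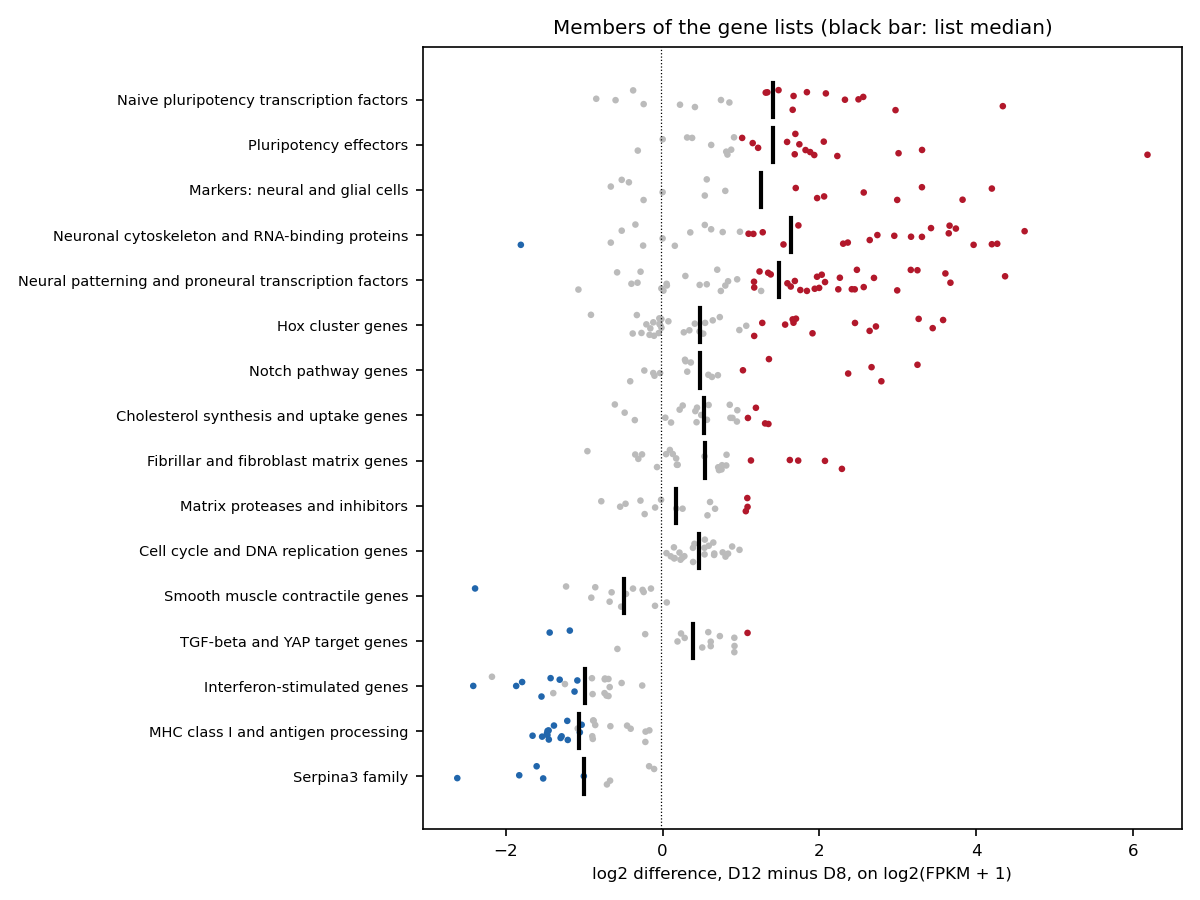
Log2 difference D12 minus D8 (horizontal axis) of the tested members of 16 gene lists, 1 point a gene, red where called higher, blue where called lower and grey where not called, with a bar at each list's median and a dotted line at the median of all genes tested. The pluripotency, neural and Notch lists carry points far to the right, and the interferon, MHC and Serpina3 lists lie to the left.

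The genes that fell included the interferon-stimulated genes, which cells switch on in response to interferon. Of 22 tested, 8 were called lower and none higher, with a median log2 difference of -0.99, and all 22 differences were below 0. Irf7 (chr7:141263183-141266499), the factor that amplifies interferon production, was at 25.3 and 18.9 FPKM at D8, 6.09 and 4.47 at D10 and 3.31 and 3.28 at D12 (log2 difference -2.41, SE 0.35, adjusted p = 8.70e-05). Both D10 libraries were closer to D12 than to D8. Oasl2, an antiviral oligoadenylate synthetase-like protein, fell from 17.6 and 13.8 to 3.36 and 3.77 FPKM (log2 difference -1.87, SE 0.35, adjusted p = 0.00119). Isg15, a ubiquitin-like modifier, was at 49.7 and 50.8 FPKM at D8, 20.3 and 10.2 at D10 and 12.2 and 8.74 at D12 and missed the threshold, with a log2 difference of -2.17 ± 0.69 (SE, adjusted p = 0.0514). Without the first D8 library 2 of the 22 were called, and without the first D12 library 4. In MEF, Irf7 stood at 0.318 FPKM and Isg15 at 2.33, both below D12.

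The promoters of Ifit1, a sensor of viral RNA, and Gbp2, an interferon-induced GTPase, are shown because they hold the core of the interferon-stimulated response element, GAAA repeated after any 2 bases, in capitals. In both it reads on the opposite strand, as TTTC repeated after 2 bases. The windows are the 250 bases before the RefSeq start sites in GRCm38.p6.

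Ifit1 (chr19:34640639-34640888, plus strand): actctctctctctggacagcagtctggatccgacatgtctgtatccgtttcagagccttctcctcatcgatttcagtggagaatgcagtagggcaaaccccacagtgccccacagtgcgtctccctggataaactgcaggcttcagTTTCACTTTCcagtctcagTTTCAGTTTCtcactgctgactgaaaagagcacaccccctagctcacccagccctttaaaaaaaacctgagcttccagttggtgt
Gbp2 (chr3:142620413-142620662, plus strand): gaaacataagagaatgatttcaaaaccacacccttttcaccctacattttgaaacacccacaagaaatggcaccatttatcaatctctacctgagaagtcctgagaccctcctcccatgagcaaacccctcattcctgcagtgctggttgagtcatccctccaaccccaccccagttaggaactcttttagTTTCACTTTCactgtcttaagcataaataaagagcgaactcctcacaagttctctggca

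Ifit1 was at 16.3 and 12.5 FPKM at D8, 5.21 and 3.10 at D10 and 3.10 and 5.71 at D12 and Gbp2 at 29.1 and 18.3 FPKM at D8, 14.5 and 13.7 at D10 and 9.22 and 12.3 at D12. All D12 libraries were below all D8 libraries, with log2 differences of -1.54 ± 0.41 (SE, adjusted p = 0.0185) and -1.05 ± 0.27 (SE, adjusted p = 0.0147). Without the first D8 library these were -1.36 (adjusted p = 0.171) and -0.73 (adjusted p = 0.259), and without the first D12 library -1.19 (adjusted p = 0.158) and -0.86 (adjusted p = 0.121). Searched on both strands, the element was present in 2.98% of 32851 promoter windows and in 3.09% of the genes tested. It was found in 10 of 140 genes that fell (7.14%) and 10 of 357 that rose (2.80%).

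Antigen presentation genes fell with them. In a list chosen after the values were seen, 14 of 26 genes of MHC class I and its processing were called lower and none higher, with a median of -1.07, and 9 were called without the second D12 library. H2-K1 (chr17:33996012-34000619), a classical class I chain, was at 224 and 211 FPKM at D8, 129 and 112 at D10 and 73.5 and 84.6 at D12 (log2 difference -1.45, SE 0.17, adjusted p = 7.13e-06). Every D10 library of H2-K1 was below every D8 library, and every D12 library was below every D10 library. H2-D1 fell from 282 and 270.4 to 111 and 99.6 FPKM (log2 difference -1.38, SE 0.21, adjusted p = 2.03e-04), and the peptide transporter Tap1 from 21.1 and 16 to 6.02 and 8.02 (log2 difference -1.29, SE 0.23, adjusted p = 6.88e-04). B2m, the light chain of class I, was at 1329 and 1388 FPKM at D8, 1283 and 1100.0 at D10 and 1036 and 1314 at D12 (log2 difference -0.22, SE 0.20, adjusted p = 0.582). The H2-Q genes are near-identical copies among which reads can be split, so their single values are uncertain.

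Other secreted and surface proteins made up the rest of the strongest falls. Fgl2 (chr5:21372673-21378386), a fibrinogen-like immune regulator, was at 102 and 51.9 FPKM at D8, 23.8 and 16.9 at D10 and 10.9 and 8.70 at D12 (log2 difference -2.78, SE 0.32, adjusted p = 6.97e-06). Thbs4 (chr13:92751586-92794818), a thrombospondin of the matrix, was at 21.7 and 15.3 FPKM at D8, 4.35 and 3.40 at D10 and 2.01 and 3.00 at D12 (log2 difference -2.47, SE 0.26, adjusted p = 2.42e-06). In both genes every D10 library was below every D8 library, and every D12 library was below every D10 library. Cldn11, a tight junction claudin, fell from 15.7 and 20.5 to 4.78 and 2.38 FPKM, and Ptgds, a prostaglandin D synthase, from 12.7 and 19 to 3.65 and 2.16, with log2 differences of -2.10 ± 0.32 (SE, adjusted p = 1.74e-04) and -2.11 ± 0.30 (SE, adjusted p = 9.18e-05). Of the Serpina3 protease inhibitors, 5 of 9 tested were called lower, with a median of -1.0. Serpina3n was by far the most abundant, at 1627 and 968 FPKM at D8, 598 and 559.5 at D10 and 348 and 358 at D12 (log2 difference -1.83, SE 0.35, adjusted p = 0.00146, and -1.45 (adjusted p = 0.0505) without the first D8 library). These genes are a cluster of related copies. Rn7sk, the 7SK RNA, which is made by RNA polymerase III and has no poly(A) tail, was at 49.5 and 26 FPKM at D8, 2.51 and 5.25 at D10 and 1.52 and 2.63 at D12 (log2 difference -3.61, SE 0.63, adjusted p = 6.13e-04). Its high values were limited to the D8 libraries, as the other 29 time-course libraries had at most 6.84 FPKM and a median of 2.46. Whether library preparation had a part in it was not tested.

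D10 lay between D8 and D12, but not at the same point for rising and falling genes. In the step from D8 to D10, 57 genes were called higher (0.338%) and 35 lower (0.208%), and from D10 to D12 259 higher (1.54%) and 6 lower (0.0356%). For the genes called between D8 and D12, which share both end points with these steps, the median log2 change of the 524 that rose was 0.48 to D10 and 1.02 after it, and that of the 192 that fell was -0.85 and -0.45. At D10 the median riser had made 30.8% of its change and the median faller 65.1%. The means at D10 were between those of D8 and D12 for 497 of the 524 (94.8%) and 181 of the 192 (94.3%), against 51.9% of all genes. Choosing genes by a large difference between D8 and D12 favours such a position, so the contrast with all genes is no test. The 2 D10 libraries were not at the same point, since the second was above the first for 440 of the 524 that rose (84.0%) and for 55 of the 192 that fell (28.6%), against 49.8% of all genes. The count of the first step was 16 without the second D10 library, 158 without the first and 15 without the first D8 library, where the split turned to 5 higher and 10 lower, and that of the second step 423 and 147 without the second and the first D10 library.

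Movement was partly towards mES and partly away from it. Of the 524 genes that rose, 206 (39.3%) had a level in mES of 2-fold that in MEF or more, against 22.3% of all genes tested, and 154 (29.4%) were under 1 FPKM in mES and in both MEF libraries, against 14.9%. On the log2 scale 182 of the 524 (34.7%) ended at least 1 closer to mES and 257 (49.0%) at least 1 further from it. Stmn3, Scrt2 and Msx3, at 1.09, 0.0608 and 0.830 FPKM in mES, are examples of the second kind. Of the 192 genes that fell, 163 (84.9%) ended at least 1 closer to mES and 17 (8.85%) further from it. Over all genes tested 2.51% ended at least 1 closer and 1.85% further, but every called gene had changed by at least 1. A called gene that fell to a level still at or above that in mES is counted as closer by this rule. Of the fallers 79 (41.1%), with Npy and Gal among them, were under 1 FPKM in mES and in both MEF libraries, against 14.9% of all genes.

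The same interval with NanogBiD had more calls. Between its single D8 library and its 2 D12 libraries, 1096 genes were called higher (6.51%) and 745 lower (4.42%), with the spread of the lone library taken from the other groups. Among genes of at least 5 FPKM the split was 627 higher and 663 lower. Of the 524 genes that rose with NanogWT, 315 (60.1%) were also called higher with NanogBiD and 10 lower, and their median log2 difference with NanogBiD was 1.35. Of the 192 that fell, 67 (34.9%) were also called lower and 1 higher, with a median of -0.72. The test of the difference between both changes called 1123 genes (6.67%), of which 555 (3.30%) had the higher change with NanogWT and 568 (3.37%) the lower. This balance turned with the processing, to 489 and 271 among genes of at least 5 FPKM, 554 and 343 with a pseudocount of 0.1 and 621 and 468 after quantile normalization. Among them were 126 of the 716 (17.6%). The fusion libraries were shallower than all 6 NanogWT libraries, and depth and combination cannot be told apart in these contrasts.

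Members of the neural lists were called higher with both combinations. Of the neuronal cytoskeleton genes, 20 were called higher with NanogWT and 21 with NanogBiD, and of the patterning factors 28 and 30. The fibroblast matrix genes differed: 5 of 23 were called higher with NanogWT, while 9 were called lower and none higher with NanogBiD, and 11 of 23 passed the test of the difference. Dcn stood at 18.7 FPKM in the single D8 library and 9.99 and 12 at D12 with NanogBiD, and the difference between the changes was 2.45 ± 0.47 (SE, adjusted p = 0.00292). Timp3, an inhibitor of matrix metalloproteinases, was at 62 and 68.9 FPKM at D8, 109 and 114 at D10 and 131 and 148 at D12 with NanogWT and at 37.9 FPKM in the single D8 library and 8.85 and 12.8 at D12 with NanogBiD, a difference of 2.82 ± 0.25 (SE, adjusted p = 1.89e-06). The NanogWT change of Timp3 alone had a log2 difference of 1.08 ± 0.16 (SE, adjusted p = 1.05e-04), and of 0.99 (adjusted p = 0.00365) without the second D12 library.

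For pluripotency genes the combinations stood at different levels at D8. Sox2 was at 73.5 FPKM in the single D8 library and 266 and 212 at D12 with NanogBiD, and Dppa5a at 128 FPKM in the single D8 library and 1536 and 729 at D12. Their changes were larger with NanogWT, by 2.66 ± 0.71 (SE, adjusted p = 0.0229) and 3.14 ± 0.65 (SE, adjusted p = 0.00447), while every NanogWT library of D12 remained below the NanogBiD libraries of the same day. Sdk2, an adhesion protein of synapses, fell with NanogWT from 17.4 and 13 to 4.94 and 4.69 FPKM and was at 2.06 FPKM in the single D8 library and 2.96 and 5.50 at D12 with NanogBiD, a difference of -2.19 ± 0.34 (SE, adjusted p = 4.27e-04). Irf7 was at 4.57 FPKM in the single D8 library and 3.07 and 2.35 at D12 with NanogBiD, and there the difference between the changes was -1.82 ± 0.55 (SE, adjusted p = 0.041).

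**Figure D5:**
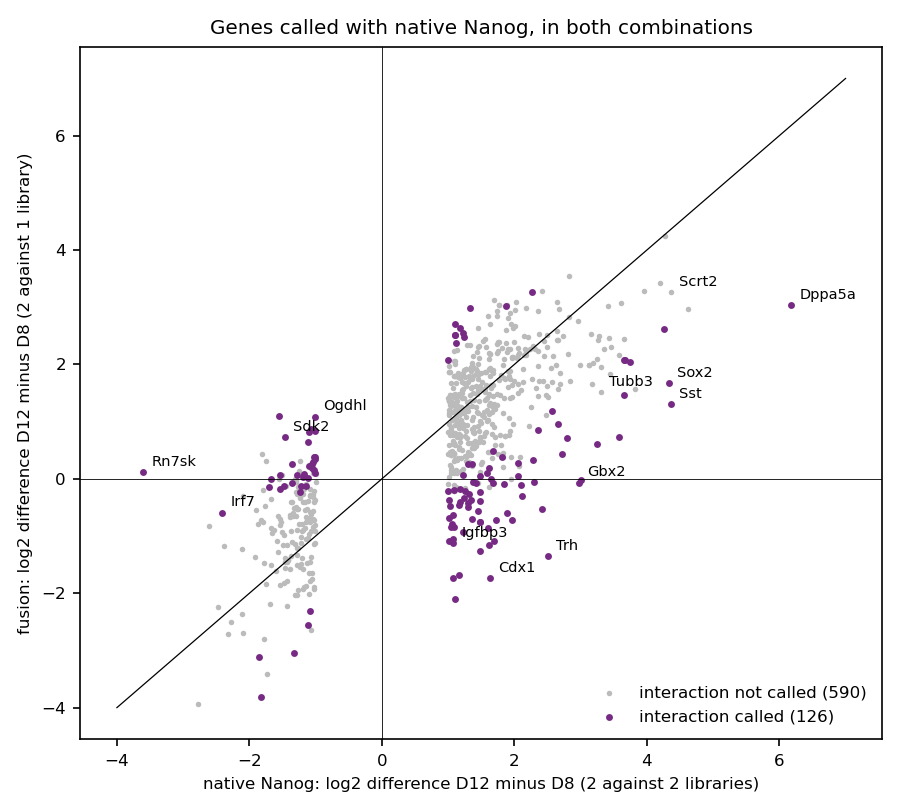
Log2 difference D12 minus D8 with NanogWT (horizontal axis) against that with NanogBiD (vertical axis) for the 716 genes called with NanogWT, purple for the 126 whose changes differed between the combinations by the interaction test and grey for the other 590. Most points lie in the quadrants of equal sign, as 461 of the 524 risers and 156 of the 192 fallers do.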

How the data were processed

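The labels and the study's methods state that RNA was extracted with FreeZol and made into libraries with a Vazyme mRNA-seq kit (the labels and the methods name different versions). The submitters' processing notes name Trim Galore 0.6.4, HISAT2 2.2.1 (alignment to mm10, per the methods) and StringTie 2.2.1. The annotation and the use of strand are not given in the sources used here, so reads of overlapping genes may be shared. The authors deposited FPKM per gene symbol for 37108 entries and 34 libraries, with no counts. Relative depth was read from the steps between low values. The 16842 genes that reached 1 FPKM in 2 or more of the 31 time-course libraries were tested with limma 3.58.1 in R 4.3.3 (lmFit, contrasts.fit, eBayes with trend) on log2(FPKM + 1), with 1 mean per combination and day (16 groups), two-sided, Benjamini-Hochberg adjusted over all genes. The study's own tool, GFOLD, needs reads and was not used here.

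Contrasts were those among D8, D10 and D12 of NanogWT, D12 against D8 of NanogBiD, the difference of both, and D7 against D3. On simulated data the fit was checked for the D12 against D8 contrast. Coordinates and promoters are from RefSeq (GRCm38.p6, 16428 tested symbols matched). Python 3.11.15, numpy 2.4.6, pandas 2.3.3 and matplotlib 3.10.9 were used. The libraries and gene lists were chosen with earlier results of these data known. Genes named were the 12 largest rises and 12 largest falls with non-overlapping libraries and at least 5 FPKM in the higher group (without Gm, Mir, Snor, Rik and pseudogene symbols), up to 4 members a list, Nanog, Pou5f1 and Ss18, and the 6 largest differences each way between combinations. The Hox, Notch, patterning, cytoskeleton, neuropeptide, MHC and Serpina3 lists and Zfp42, Gbp2, Nrarp, Klf4, Tbx3, Isg15 and the other named members beyond these were chosen after the values were seen. Some genes that fall under these rules are not reported here. Of the replicate numbers, same-numbered libraries of different days did not deviate together in every pair (r = 0.182, 0.0308 and 0.104 across genes), so they were treated as names. Alternatives were another pseudocount, filters, scalings, fewer samples in the fit, a replicate block and each library left out.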

Additional observations from a re-analysis of the deposited data

Results flagged for a closer look

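With NanogBiD as the second group, 31 of the genes named by rule or described above were called both with NanogWT and by the interaction test. Each value below is the log2 change with NanogWT minus that with NanogBiD (limma, adjusted p under 0.05 and at least 1 in size). Genes not called with NanogWT were left out. B2m was such a gene, with an interaction of 2.19 ± 0.32 (SE, adjusted p = 2.06e-04). With NanogBiD it stood at 415 FPKM in the single D8 library and 75.0 and 80.0 at D12. The NanogBiD D8 group is 1 library, and the combinations differ in depth. No explanation was tested.

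Pluripotency and developmental genes with a positive value were Dppa5a (3.14), Sox2 (2.66), Gbx2 (3.03), Tdh (3.02) and Cdx1 (3.37). Also positive were the skeletal muscle marker Mylpf (2.94) and the peptide hormone gene Trh (3.86). Neural and Notch genes were Sst (3.05), Stmn3 (1.65), Stmn2 (2.36), Dpysl5 (1.70), Msx3 (1.60), Neurog2 (1.38), Nrarp (2.07) and Hes5 (2.63). Matrix, protease and secreted genes were Bgn (1.95), Dcn (2.45), Mfap5 (2.79), Timp3 (2.82), Mmp3 (1.86), Igfbp3 (2.20) and Serpina3n (2.00). Enzymes with a positive value were Idi1 (1.72) and Nqo1 (1.36). Negative values belonged to Rn7sk (-3.73), Irf7 (-1.82), Sdk2 (-2.19), Ogdhl (-2.10), Firre (-1.94), Nppc (-1.92) and Cnmd (-1.85).

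A positive value does not by itself say that a gene rose with NanogWT. Serpina3n fell with both combinations and fell further with NanogBiD, where it stood at 592 FPKM in the single D8 library and 30.5 and 54.8 at D12. For Trh and Cdx1 the NanogBiD values were already high at D8 and lower at D12, with Trh at 27 FPKM in the single D8 library and 10.2 and 9.65 at D12 and Cdx1 at 33.5 FPKM in the single D8 library and 8.01 and 10.9 at D12.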

How the results depend on the processing

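No named gene called between D8 and D12 changed sign under any alternative it was tested in. Signs of the named genes not called were not tallied. Counts did change, and so did the balance of higher and lower calls in 3 comparisons. Calls with NanogBiD went from 1096 higher and 745 lower to 627 and 663 among genes of at least 5 FPKM, and those from D8 to D10 from 57 and 35 to 5 and 10 without the first D8 library. Between D8 and D12 with NanogWT, 716 genes became 1756 without a fold limit, 1081 with a pseudocount of 0.1, 1073 when rescaled to a common total (68.8% of them higher, against 73.2%), 725 after quantile normalization, 377 in a fit to the D8 and D12 libraries alone and 485 in a fit to the 6 late libraries. Without a fold limit the other counts were 164 (D8 to D10), 514 (D10 to D12), 3468 (NanogBiD) and 525 (D3 to D7). The steps lost most in small fits: 0 and 0 genes with the compared groups alone (1948 and 1573 at an unadjusted p under 0.05) and 0 and 38 in the 6 late libraries (1633 and 1951 unadjusted). For the difference between combinations the share that was higher was 49.4%, and 61.8% with the smaller pseudocount, 64.3% with genes of at least 5 FPKM, 57.0% after quantile normalization and 41.4% when rescaled. Without 1 library at a time the counts ranged from 536 to 804 (D8 to D12), 15 to 158 (D8 to D10), 147 to 423 (D10 to D12), 1828 to 1838 (NanogBiD), 851 to 1115 (difference) and 213 to 256 (D3 to D7).

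With the replicate block the counts were 730, 123, 277, 1840, 1283 and 288, and it cost none of the 96 named genes its call. Of these, 33 lost their call in the fit to D8 and D12 alone, 26 in that to the 6 late libraries, 11 with a pseudocount of 0.1, 7 without a filter, 4 rescaled and 2 after quantile normalization, and 13 to 22 without 1 library. The genes described above that lost it with D8 and D12 alone include Fabp7, Cldn11, Cdx1, Esrrb, Tdh, Dcn, Ogn, Hes5 and Serpina3n, and in the 6 late libraries Fabp7, Cdx1, Gbx2, Tdh and Ogn. With the D8 and D12 libraries alone, the lists had 6 naive factors, 4 downstream pluripotency genes, 5 neural markers, 7 Hox genes and 15 patterning factors called, and 6, 5, 5, 9 and 18 in the 6 late libraries. Depth is known only relative to other libraries, and no counting interval can be given. With 2 libraries a day, genes near 1 FPKM carry the least certain values.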

Other observations

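In sum, macrophage and leukocyte markers were higher in the first replicate than in the second on each day. Their summed level over 12 genes was 36.7 and 13.8 FPKM at D8, 58.9 and 15.4 at D10 and 30.0 and 11.8 at D12. None of the 11 tested was called between D8 and D12.

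The second library of D8 also had the higher value for 395 of the 524 genes that rose (75.4%), against 55.8% of all genes, and the lower for most of the 192 that fell, where 68 were higher (35.4%). At D12 the second was higher for 281 (53.6%) of the risers.

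Rps28, a ribosomal protein gene with many pseudogene copies, was at 9.99 and 8.66 FPKM at D8, 143 and 219.7 at D10 and 242 and 162 at D12 and was called higher (log2 difference 4.27, SE 1.26, adjusted p = 0.0335), but lost the call without any 1 of the 4 libraries of D8 and D12. The D8 values were below those of earlier days, at 84.2 and 98.5 FPKM at D5 and 95.6 and 71.3 at D7, while D3 stood at 25 and 0.164 and MEF at 0.820. Hist3h2ba, a histone H2B gene, rose from 1.17 and 1.91 to 22.1 and 20.0 FPKM (log2 difference 3.13, SE 0.41, adjusted p = 3.56e-05), while the summed histone share was 0.101 to 0.121% of the values in the 6 libraries. Cdx1, a homeobox gene of the posterior embryo and a Wnt target, went from 0.346 and 0.711 to 2.57 and 5.21 FPKM (log2 difference 1.63, SE 0.30, adjusted p = 9.73e-04). The mES library had 83.8 FPKM.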
